A study of Mus musculus with 2 samples.

Results

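The tight junction genes described here were followed across the cell classes of prostate tumours from mice of 2 genotypes, called DoubleTg and TripleTg. The set holds 8 claudins (Cldn1, Cldn2, Cldn3, Cldn4, Cldn5, Cldn7, Cldn8 and Cldn10), occludin (Ocln) and Tjp1, the gene of the scaffold protein ZO-1. These are 10 of the 28000 features counted in both single-cell libraries. They were chosen by name with earlier results of these data known, and also on the measured Cldn10 levels of the libraries. The difference in Cldn10 is therefore given as a description and not as a finding.

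Tumour tissue was dissociated to single cells and sequenced with 10x Genomics 3′ v3 chemistry, in 1 library labelled prostatic adenocarcinoma from DoubleTg and 1 labelled prostatic carcinoma from TripleTg. DoubleTg mice carried hHGFtg, a human HGF transgene active in the whole body, and hMETtg, a human MET transgene at the H11 locus that PB-Cre4 switched on. PB-Cre4 expresses Cre recombinase from a probasin promoter, mainly in prostate epithelium. TripleTg mice carried the same 3 alleles and a floxed Ctnnb1 exon 3 allele, which yields stabilised β-catenin, the transcriptional effector of canonical Wnt signalling, once Cre acts. Both groups thus shared the HGF and MET transgenes, and no wild-type library was analysed here. Neither the ages of these mice nor whether a library came from 1 animal is given in the sources used here. With 1 library per genotype no test between genotypes was possible and no p-value is given. All intervals below are 95% intervals that cover counting error only, not the spread between animals.

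Tight junctions seal the space between neighbouring epithelial or endothelial cells near their apical border. Claudins are membrane proteins that form the strands of the junction and set which ions pass. Some of them, such as Cldn2, Cldn10 and (depending on the tissue) Cldn4 and Cldn8, are known for forming or shaping ion-selective channels, whereas Cldn1, Cldn3 and Cldn5 are mostly sealing claudins. Occludin belongs to the MARVEL family, and ZO-1 ties claudins to the actin cytoskeleton. In the prostate, luminal secretory cells carry the tight junctions that close off the duct lumen from the tissue.

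After cells with at most 200 or at least 7000 genes or with at least 15% mitochondrial UMIs were left out, 10598 of 12072 DoubleTg cells and all 9492 TripleTg cells remained. The deposited TripleTg matrix was thus already filtered, since the study also describes a larger set of TripleTg cells before these limits, whereas for DoubleTg the limits left more cells than the study kept. Their median depths were 16761 and 20097 UMIs per cell, and 29 barcodes occurred in both. Cells of each library were clustered without the tight junction genes and named from marker lists. Luminal-like cells numbered 5107 in 10 clusters of the DoubleTg library and 4891 in 8 clusters of the TripleTg library, with median depths of 35138 and 25608 UMIs. Basal-like cells numbered 1863 and 1087, seminal vesicle-like cells 127 and 675, and endothelial-like cells 277 and 243. A further 1393 DoubleTg and 1690 TripleTg cells stayed unnamed. In luminal-like cells the keratin gene Krt8 stood at 4749 and 5347 CPM (the UMIs of a gene per 1000000 UMIs of the class). Krt18 stood at 3784 and 5019 CPM and Krt19 at 4385 and 3776 CPM. Probasin (Pbsn), the androgen-dependent secretion gene whose promoter drives the Cre, stood at 1637 and 9.92 CPM. Axin2, a direct Wnt target, stood at 1.67 and 84.2 CPM there, and hMETtg was detected in 82.5% and 33.9% of luminal-like cells. The lung surfactant gene Sftpc had no UMI in DoubleTg luminal-like cells and stood at 43.9 CPM in TripleTg luminal-like cells, 65.1 CPM in TripleTg macrophages and 390 CPM in TripleTg seminal vesicle-like cells. Whether this RNA bears on the values below was not tested, apart from the levels given beside them.

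Free RNA in droplets puts UMIs of abundant genes into cells that do not express them. Immune-like cells (810 DoubleTg and 622 TripleTg cells, with median depths of 8280 and 9159.5 UMIs) should lack epithelial claudins and were used as the background. In these cells Cldn4 nonetheless stood at 395 and 478 CPM, Cldn3 at 145 and 145 CPM, Cldn7 at 117 and 154 CPM, and Cldn10 at 17.5 and 0 CPM. A level near these values was read as background and not as expression. This background is not uniform: the 276 DoubleTg macrophages, which leave out the 438 T and NK cells of that class, stood at 81.7 CPM of Cldn4, 31.9 of Cldn3, 29.4 of Cldn7 and 7.74 of Cldn10, and the 434 TripleTg macrophages at 212, 47.6, 64.0 and 0 CPM. The TripleTg immune-like class holds no T and NK cells, since the Gzma-led cluster of 141 cells with T cell and mast cell genes stayed unnamed as mixed, and that cluster had 6 Cldn10 UMIs in 2 cells (1.96 CPM). Shares of cells with a UMI are given after each cell was thinned to 5000 UMIs, with 2171 DoubleTg and 1699 TripleTg cells below that depth left out.

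The members lie on 7 mouse chromosomes (GRCm38, GENCODE vM21). Cldn10 spans chr14:118787908-118875489 on the plus strand, 87.6 kb with 3 annotated transcripts. Their first and last starts are 66.8 kb apart, and 3′ counts cannot separate them because they end close together, between 118874524 and 118875489. Cldn4 (chr5:134945119-134946934, minus strand) and Cldn3 (chr5:134986214-134987472, plus strand) are neighbours 39.3 kb apart. Cldn1 (chr16:26356642-26371841), Cldn5 (chr16:18776847-18778262) and Cldn8 (chr16:88560828-88563183) share a chromosome without being adjacent. Cldn7 lies at chr11:69964779-69967885, Cldn2 at chrX:139800828-139811386, Ocln at chr13:100496507-100552718 and Tjp1 at chr7:65296165-65527781. The 250 bases before the first RefSeq start of Cldn10 (chr14:118787621-118787870, plus strand), Cldn3 (chr5:134985964-134986213, plus strand) and Cldn4 (chr5:134946935-134947184, minus strand) are shown 5′ to 3′ from RefSeq on GRCm38.p6, because Cldn10 is the member nearly missing from TripleTg and Cldn3 and Cldn4 are a neighbouring pair, each of which differed by less than 2-fold between the libraries in luminal-like cells. Capitals mark an E-box, CAGGTG or its reverse complement.
Cldn10: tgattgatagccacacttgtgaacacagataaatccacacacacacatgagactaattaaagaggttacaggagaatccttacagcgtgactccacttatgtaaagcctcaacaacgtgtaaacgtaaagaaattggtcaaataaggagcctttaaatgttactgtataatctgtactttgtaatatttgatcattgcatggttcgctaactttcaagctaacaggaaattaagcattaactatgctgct
Cldn3: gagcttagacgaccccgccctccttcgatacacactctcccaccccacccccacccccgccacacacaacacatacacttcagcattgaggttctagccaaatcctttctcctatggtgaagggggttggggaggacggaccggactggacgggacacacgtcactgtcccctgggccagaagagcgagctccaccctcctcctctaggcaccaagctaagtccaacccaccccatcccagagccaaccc
Cldn4: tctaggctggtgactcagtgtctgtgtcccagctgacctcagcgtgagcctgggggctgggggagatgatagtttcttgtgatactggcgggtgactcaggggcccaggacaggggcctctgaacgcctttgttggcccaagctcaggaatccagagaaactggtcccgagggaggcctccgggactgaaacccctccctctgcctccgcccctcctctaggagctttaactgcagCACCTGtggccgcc
The Cldn10 window shown has a GC content of 36%, against 60.8% for Cldn3, 62% for Cldn4 and a median of 52.4% over 32851 such windows. A second Cldn10 window at the downstream start (chr14:118854700-118854949), which overlaps an annotated exon, has 72.4%. Which start these cells use cannot be told from 3′ counts. Of 12 windows for 9 members (Cldn8 had no entry), 3 held the E-box CAGGTG on either strand, those of Cldn4, Cldn7 and Ocln, against 17.2% of all windows. For Cldn7 and Ocln it lay in a second window that overlaps annotated exons and not in the window before the first start. The TCF/LEF core CTTTGA was in 0 of the 12 windows, against 13.8% of all. An androgen receptor half-site, AGAACA, was in the Cldn2 window only, against 16.1% of all. A match in these letters is a description of the window and not a binding site.

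Cldn10 was a gene of luminal-like cells in the DoubleTg library and was nearly missing in the TripleTg library. In DoubleTg luminal-like cells it stood at 149 CPM (147 to 151; 29660 UMIs) and in TripleTg luminal-like cells at 0.536 CPM (0.425 to 0.667; 80 UMIs), 278-fold lower, with a log2 ratio of -8.12 (-8.45 to -7.80). The size depends on the choice of cells more than this interval shows, at -6.49 with the clusters weighted equally (chosen after seeing the data), -9.11 in hMETtg-positive cells only and -9.13 at a coarser clustering. Of DoubleTg luminal-like cells 62.9% had a UMI, with a median of 7 and up to 64 UMIs in these cells. Of TripleTg luminal-like cells 32 of 4891, or 0.654%, had one. After thinning the shares were 38.4% and 0.274%, beside 4.34% and 0% in immune-like cells. The 0 of 622 TripleTg immune-like cells allows a share of up to 0.482% before thinning. Among 9060 genes at or above 5 CPM in either library, 21 had a lower ratio than Cldn10 in luminal-like cells.

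Within the DoubleTg library the level of Cldn10 differed widely between luminal-like clusters, each named here by its leading gene. It was highest in the cluster led by Spink5, at 308 CPM (300.0 to 317), where 98.1% of cells had a UMI. The clusters led by Msmb, by Alb, by Sbp (a secretion gene of the ventral lobe) and by Gsdmc2 followed at 236, 224, 180 and 175 CPM, with the last pair overlapping in their intervals. The interferon-response cluster led by Ifit3b and the cycling cluster led by Ube2c stood at 113 (104 to 123) and 110.4 CPM (99.3 to 122) and also overlapped. The cluster led by Msln stood at 65.9 CPM, that led by Prr9 at 21.5 CPM and that led by 9530053A07Rik at 8.0 CPM, so the order ended 38.5-fold below its top. The last cluster carried the highest Pbsn level of these clusters, 13406 CPM, and only 11.3% of its cells had a Cldn10 UMI.

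In the TripleTg library 3 of 8 luminal-like clusters, those led by Ube2c, Apoc4 and Ifit3, held no Cldn10 UMI. The highest level was in the small cluster led by Reg3b, 11.1 CPM (7.75 to 15.5), with 35 UMIs in 16 of 114 cells. The basal keratin gene Krt5 had a UMI in 37.7% of these cells, against 8.92 to 14.1% in the other TripleTg luminal-like clusters. Its 10 leading genes include Cyp2f2 and Cxcl17, as do those of the Gsdmc2-led DoubleTg cluster. The clusters led by Rnase1 and 9530053A07Rik stood at 0.781 and 0.781 CPM, with 19 UMIs in 7 cells and 23 UMIs in 6 cells. The Reg3b-led cluster held 43.8% of the Cldn10 UMIs of TripleTg luminal-like cells and had the lowest sum over 6 Wnt output genes of the 8 clusters, 76.9 CPM against 180 to 324 CPM in the other seven. In DoubleTg luminal-like clusters the same sum was 0.770 to 22.3 CPM. hMETtg was found in 7.02% of the Reg3b-led cells, and whether Wnt output or the transgene bears on Cldn10 there was not tested. Without that cluster the luminal-like log2 ratio was -8.92.

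**Figure D1:**
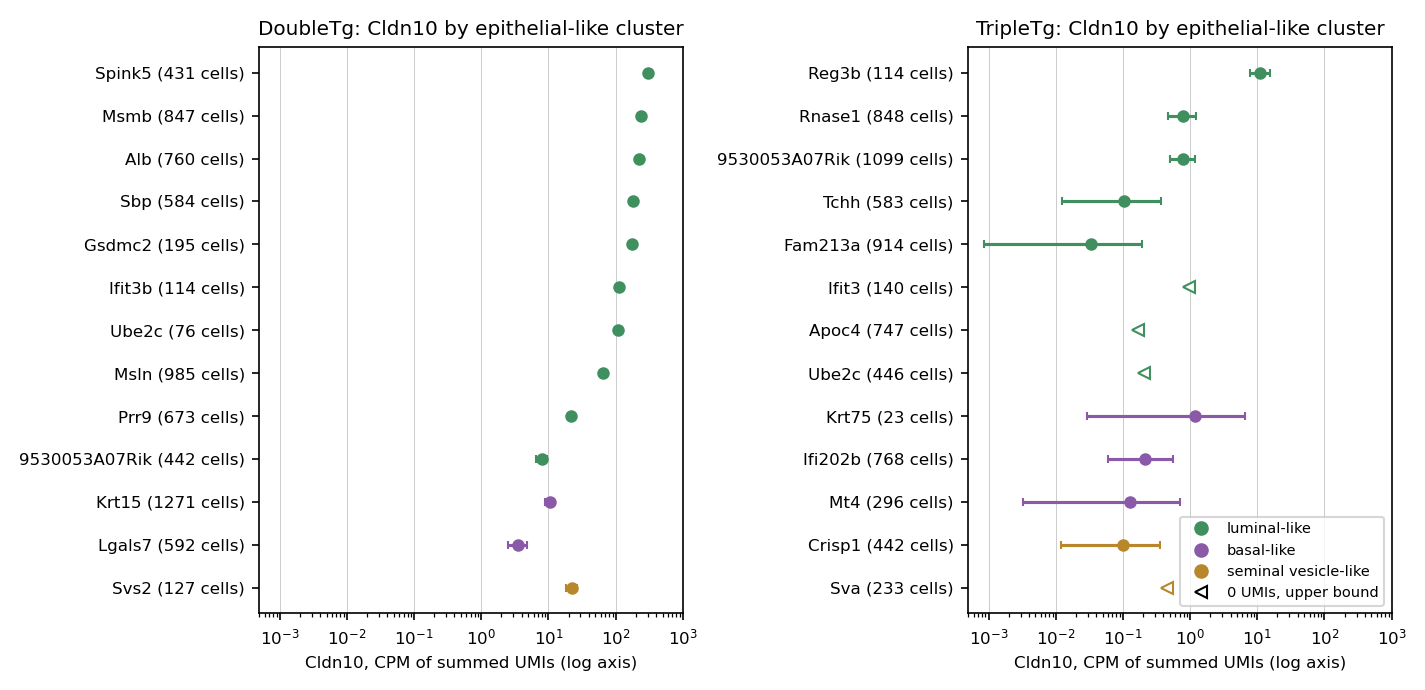
Cldn10 level in each cluster of the 3 epithelial classes (colours) of DoubleTg (left) and TripleTg (right), as CPM of summed UMIs on a log axis with 95% Poisson intervals, each cluster named by its leading gene and open triangles marking the upper bound at 0 UMIs. DoubleTg luminal-like clusters run from 8.0 to 308 CPM, whereas the highest TripleTg luminal-like cluster, led by Reg3b, stands at 11.1 CPM.

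Luminal-like clusters could be matched in 3 pairs between libraries by their leading genes. The match is loose for the pair led by 9530053A07Rik, where Pbsn stood at 13406 CPM in DoubleTg and 47.9 CPM in TripleTg. The 10 leading genes of its TripleTg cluster also include Defb50 and Srpx, which are leading genes of the Msmb-led and Prr9-led DoubleTg clusters. Cldn10 stood at 236 and 21.5 CPM in these. In the pair led by 9530053A07Rik, Cldn10 stood at 8.0 and 0.781 CPM, a log2 ratio of -3.36 (-4.07 to -2.70). In the interferon pair it stood at 113 and 0 CPM, at least 146-fold lower in TripleTg, and in the cycling pair at 110.4 and 0 CPM, at least 657-fold lower. Both bounds are set by 3 counts over the cluster and leave out the DoubleTg counting error. With it the log2 limits were -6.88 and -9.05. The 8.0 CPM of the first pair lie below the 17.5 CPM of immune-like cells and beside the 7.74 CPM of macrophages, so its ratio is read as one of background. In the other 2 pairs the DoubleTg level was above that background.

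In basal-like, endothelial-like and seminal vesicle-like cells of the DoubleTg library Cldn10 was near the immune background. Basal-like cells held 7.38 CPM (190 UMIs) in DoubleTg and 0.220 CPM (6 UMIs) in TripleTg, and after thinning 3.02% and 0% of cells. Seminal vesicle-like cells held 22.1 CPM (116 UMIs) and 0.0708 CPM (2 UMIs), with 2.25% and 0.163% of thinned cells. Endothelial-like cells held 33.7 CPM (75 UMIs) and 0 UMIs in 243 cells of TripleTg, which allows a share of up to 1.23%, at least 29.1-fold lower, with 5.63% of thinned DoubleTg cells. These DoubleTg shares lie around the immune-like 4.34%, although the endothelial-like and seminal vesicle-like levels are above the 7.74 CPM of macrophages, and the folds in these classes are not read as differences in expression. Among unnamed DoubleTg clusters, a shallow haemoglobin-led one held 212 CPM and an epithelial one of 50 cells led by Atp6v1g3 and Foxi1 held 116 CPM. DoubleTg fibroblasts held 57.1 CPM in 955 cells (Sult1e1-led 84.5 and Wif1-led 32.2 CPM), with a thinned share of 16.7%, above the immune-like share.

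Some stromal clusters held Cldn10 UMIs in the TripleTg library, in which no immune-like cell had one. The Apod-led, Col3a1-led and Crispld2-led clusters, of which the Col3a1-led one was named fibroblast, held 99 of the 194 Cldn10 UMIs of that library, in 636 cells. An unnamed cluster led by Apod, Gpx3 and Lum stood at 41.3 CPM (32.2 to 52.1; 71 UMIs in 53 of 269 cells), the Col3a1-led cluster at 10.8 CPM (6.68 to 16.5) and the Crispld2-led cluster at 4.03 CPM. The Rgs5-led smooth muscle and pericyte cluster, whose fibroblast markers summed to 4150 CPM against 2938 CPM in the Crispld2-led cluster, had 0 Cldn10 UMIs in 103 cells (up to 2.89 CPM). In the DoubleTg library luminal-like cells held 94.3% of the 31458 Cldn10 UMIs, against 41.2% in TripleTg. The highest TripleTg level was in a stromal and not in a luminal-like cluster.

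Of the 8 members at or above 5 CPM in either library in luminal-like cells, 1 (Cldn10) was at least 2-fold lower in TripleTg, beside 12.3% of all 9060 genes, and 2 (Cldn1 and Tjp1) were at least 2-fold higher, beside 11.7%. Cldn10 reached 5 CPM through the DoubleTg library alone, and Cldn2 and Cldn5 did not reach it in either. The median log2 ratio of the 8 was -0.41, and -0.40 over the 7 without Cldn10, beside -0.01 over all genes. UMI counts of 3′ libraries do not scale with transcript length, so levels of different genes may be set side by side.

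**Figure D2:**
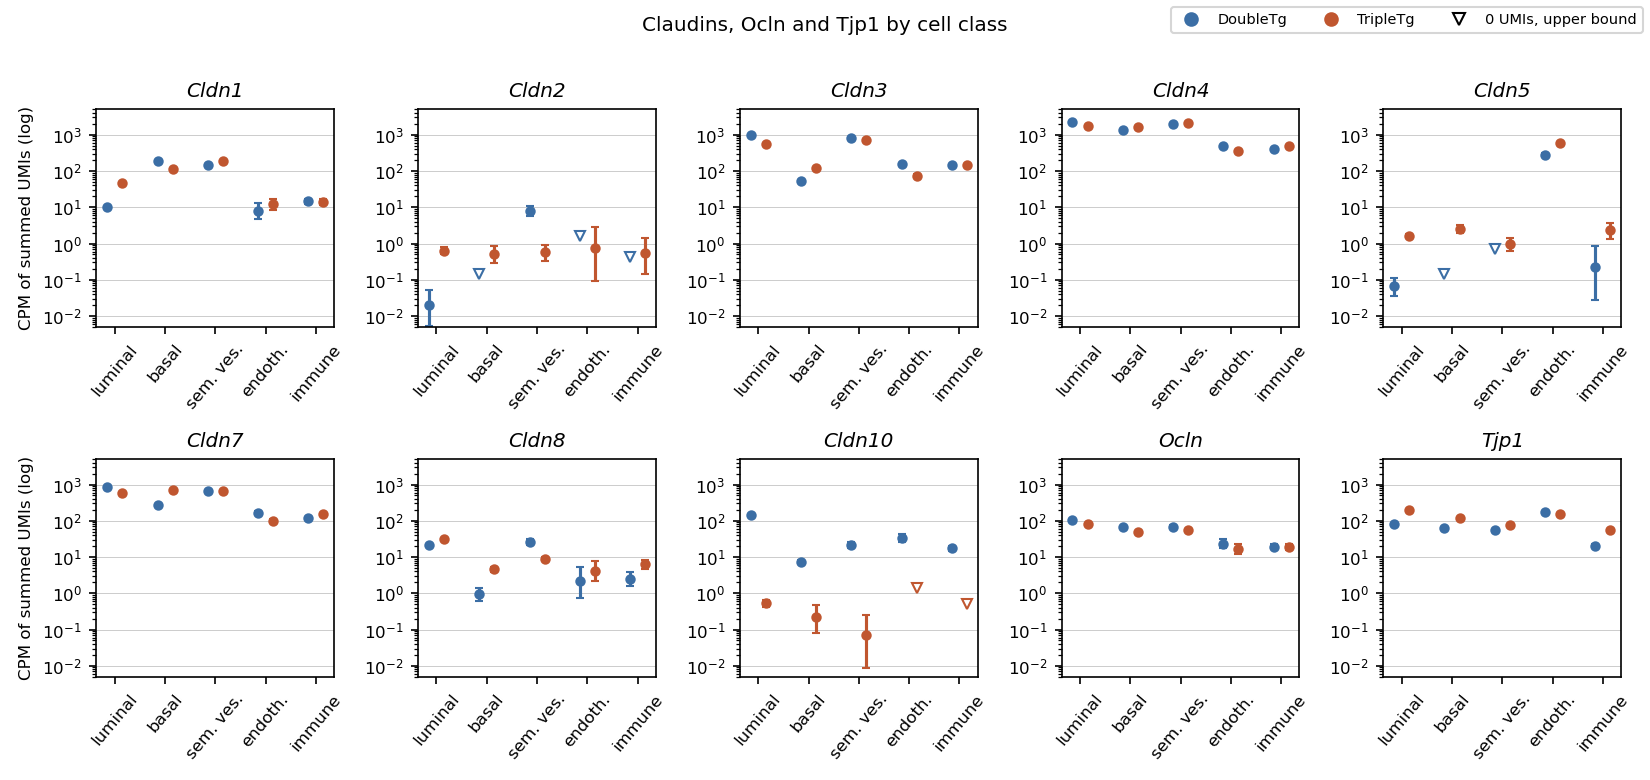
Level of each of the 10 genes in the luminal-like, basal-like, endothelial-like, seminal vesicle-like and immune-like cells of both libraries, as CPM of summed UMIs on a log axis with 95% Poisson intervals and open triangles for the upper bound at 0 UMIs. Cldn4 is the highest member in both libraries' luminal-like cells, at 2272 and 1724 CPM, and Cldn10 separates the libraries most, at 149 and 0.536 CPM.

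Cldn4, Cldn3 and Cldn7 were the abundant claudins of the luminal-like epithelium in both libraries. Cldn4 stood at 2272 CPM in DoubleTg and 1724 CPM in TripleTg luminal-like cells, a log2 ratio of -0.40 (-0.40 to -0.39). Cldn3 stood at 986 and 555 CPM, a ratio of -0.83 (-0.84 to -0.82), and Cldn7 at 842 and 574 CPM, a ratio of -0.55 (-0.57 to -0.54). All 3 were lower in TripleTg, none by as much as 2-fold, and all 3 were also lower in each of the 3 matched cluster pairs. The order Cldn4, Cldn3, Cldn7 of the DoubleTg class did not hold in TripleTg, where Cldn7 was slightly above Cldn3 (570 to 577 against 552 to 559 CPM). In thinned cells Cldn4 had a UMI in 97.6% and 98.8%, Cldn3 in 93.4% and 85.9%, and Cldn7 in 93.6% and 81.0% of luminal-like cells.

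Their spread over luminal-like clusters overlapped between the libraries. Cldn3 ran from 615 (9530053A07Rik-led) to 1531 CPM (Spink5-led) in DoubleTg and from 357 (9530053A07Rik-led) to 767 CPM (Fam213a-led) in TripleTg. Cldn4 ran from 1563 to 3112 CPM and from 1333 to 2934 CPM, with the cycling clusters lowest in both. Cldn7 ran from 301 CPM in the Sbp-led cluster to 1276 CPM in the Gsdmc2-led cluster of DoubleTg, and from 291 CPM in the 9530053A07Rik-led to 1154 CPM in the Reg3b-led cluster of TripleTg. In the matched 9530053A07Rik-led pair Cldn7 stood at 804 and 291 CPM, a log2 ratio of -1.47 (-1.51 to -1.43), the widest difference of the 3 genes in a matched pair.

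In basal-like cells, which sit on the basement membrane below the luminal layer, Cldn4 stayed high and Cldn3 was below its immune-like level. Of 7 members at or above 5 CPM there, 1 (Cldn10) was at least 2-fold lower, beside 14.1% of 9059 genes, and 2 (Cldn3 and Cldn7) were at least 2-fold higher, beside 15.6%. Of these only Cldn7 is read as a difference in expression, since Cldn10 entered through DoubleTg alone and lay below its immune-like 17.5 CPM, as Cldn3 did below its own. The median log2 ratio of the 7 was 0.25, and 0.57 over the 6 without Cldn10, beside -0.08 over all genes. Cldn4 stood at 1371 and 1636 CPM, a ratio of 0.25 (0.23 to 0.28). Cldn7 stood at 270 (263 to 276) and 712 CPM (702 to 722), 2.64-fold higher in TripleTg. It had a UMI in 52.8% and 84.6% of thinned cells, beside 17.5% and 23.8% of immune-like cells, so both values lie above background.

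Cldn3 in basal-like cells stood at 53.3 and 121 CPM, below the immune-like 145 and 145 CPM, with thinned shares of 14.3% and 24.6% beside 13.9% and 18.7%. It lies above the macrophage levels of 31.9 and 47.6 CPM and is not counted as expression here. The basal-like cells were deeper than the immune-like ones, with medians of 12650 and 22624 against 8280 and 9159.5 UMIs. Whether depth changes the background in CPM was not tested, so expression of Cldn3 in basal-like cells is not settled. Its log2 ratio of 1.18 did not hold when clusters were made with the tight junction genes (-0.08) or in hMETtg-positive cells (0.24). The basal-like class is also made of different clusters in each library, led by Krt15 and Lgals7 in DoubleTg and by Ifi202b, Mt4 and Krt75 in TripleTg. The Mt4-led cluster (296 of 1087 cells) has no basal marker among its 10 leading genes, which include Sprr1b, Asprv1 and Krt42, known from cornified or hair epithelium, and the cycling Krt75-led cluster (23 cells) has none either. Cldn7 ranged from 230 to 319 CPM over the former and from 409 (Mt4-led) to 848 CPM (Ifi202b-led) over the latter, and these did not overlap. Trp63, a defining basal transcription factor, stood at 16.9 and 62.8 CPM, Krt5 at 1199 and 1177 CPM and Krt14 at 3366 and 1934 CPM. Which part of the Cldn7 difference goes with the kinds of basal-like cells was not tested.

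Cldn1, a claudin of stratified and basal epithelia, was mainly a basal-like and seminal vesicle-like gene in DoubleTg. It stood at 189 CPM in DoubleTg basal-like and 9.88 CPM (9.45 to 10.3) in DoubleTg luminal-like cells. In TripleTg it stood at 113 CPM in basal-like and 46.7 CPM (45.6 to 47.9) in luminal-like cells. The luminal-like level was thus 4.73-fold higher in TripleTg, a log2 ratio of 2.24 (2.17 to 2.32), whereas the basal-like level had a ratio of -0.75 (-0.81 to -0.68). Thinned luminal-like shares were 3.25% and 15.9%, beside 4.49% and 4.37% in immune-like cells, so the DoubleTg luminal-like share was no higher than that of the pooled immune-like class. It was above that of DoubleTg macrophages, at 0.379% and 0.619 CPM. Whether the DoubleTg luminal-like level is background was thus not settled.

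The higher Cldn1 level of the TripleTg luminal-like class was not shared by the matched clusters. Its level was lower in TripleTg in all 3 pairs. The 9530053A07Rik-led pair stood at 5.72 and 4.85 CPM (ratio -0.24, -0.64 to 0.17), with an interval that includes 0. These values lie below the immune-like 14.5 and 14.3 CPM, though the DoubleTg one is above the 0.619 CPM of macrophages. The interferon pair stood at 55.7 and 35.0 CPM (-0.67, -0.98 to -0.37) and the cycling pair at 43.5 and 20.6 CPM (-1.08, -1.36 to -0.79). Krt5 had a UMI in 28.1% and 10.7% of the interferon cells and in 22.4% and 14.1% of the cycling cells. The part of basal-like RNA in these pairs was not tested. The high TripleTg values came from clusters not matched by their leading gene, led by Tchh at 142 CPM and by Fam213a at 79.2 CPM. The genes leading the Tchh-led cluster, among them Tchh, Krt73, Cnfn and Rptn, are known from hair follicle and cornified epithelium, although it kept the luminal-like name by its marker levels. As in every luminal-like cluster of both libraries, no marker of the luminal list is among its 10 leading genes. The Fam213a-led cluster shares Msln and Sprr2a3 among its 10 leading genes with the Msln-led DoubleTg cluster, which stood at 13.4 CPM. The Tchh-led cluster alone held 39.6% of the luminal-like Cldn1 UMIs of TripleTg. Without it, an alternative chosen after seeing the data, the Cldn1 log2 ratio of the class was 1.72 (1.64 to 1.79), whereas that of Cldn10 was -7.95 and that of Tjp1 1.20. The ratio of the class thus differed in sign from those of the interferon and cycling pairs, whereas no sign is read for the 9530053A07Rik-led pair. With luminal-like clusters weighted equally, an alternative chosen after seeing the data, the class ratio was 1.41 in place of 2.24.

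Cldn8, Cldn2 and Cldn5 were low or restricted. Cldn8 stood at 21.2 and 31.2 CPM in luminal-like cells, a log2 ratio of 0.56 (0.50 to 0.62), and at 0.971 and 4.56 CPM in basal-like cells, below the 2.53 and 6.39 CPM of immune-like cells. Its thinned luminal-like shares were 11.1% and 13.2%. In DoubleTg it was highest in the 9530053A07Rik-led cluster, at 73.7 CPM, which is where Cldn10 was lowest, and lowest in the Spink5-led cluster, at 4.68 CPM, where Cldn10 was highest. In the matched 9530053A07Rik-led pair it stood at 73.7 and 29.7 CPM, a log2 ratio of -1.31 (-1.44 to -1.18), opposite in sign to the class, whereas the other 2 pairs had ratios of 0.62 and 0.51. In TripleTg the Rnase1-led cluster was highest at 50.5 CPM and the Reg3b-led cluster lowest at 9.22 CPM.

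Cldn2, a cation channel-forming claudin, was nearly absent from DoubleTg luminal-like cells, with 4 UMIs (0.0201 CPM), and had 95 UMIs (0.636 CPM) in TripleTg luminal-like cells. Of the latter, 44 were in 19 of the 114 Reg3b-led cells, at 14.0 CPM. This small cluster was thus the highest of the TripleTg luminal-like clusters for both Cldn2 and Cldn10, although only 2 of its cells had a UMI of both. Elsewhere the TripleTg luminal-like clusters stood between 0.0917 and 0.777 CPM, near the 0.543 CPM of immune-like cells. In the DoubleTg library the 127 seminal vesicle-like cells were the one class with more than a few UMIs, 41 in 19 cells, at 7.83 CPM (5.62 to 10.6).

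**Figure D3:**
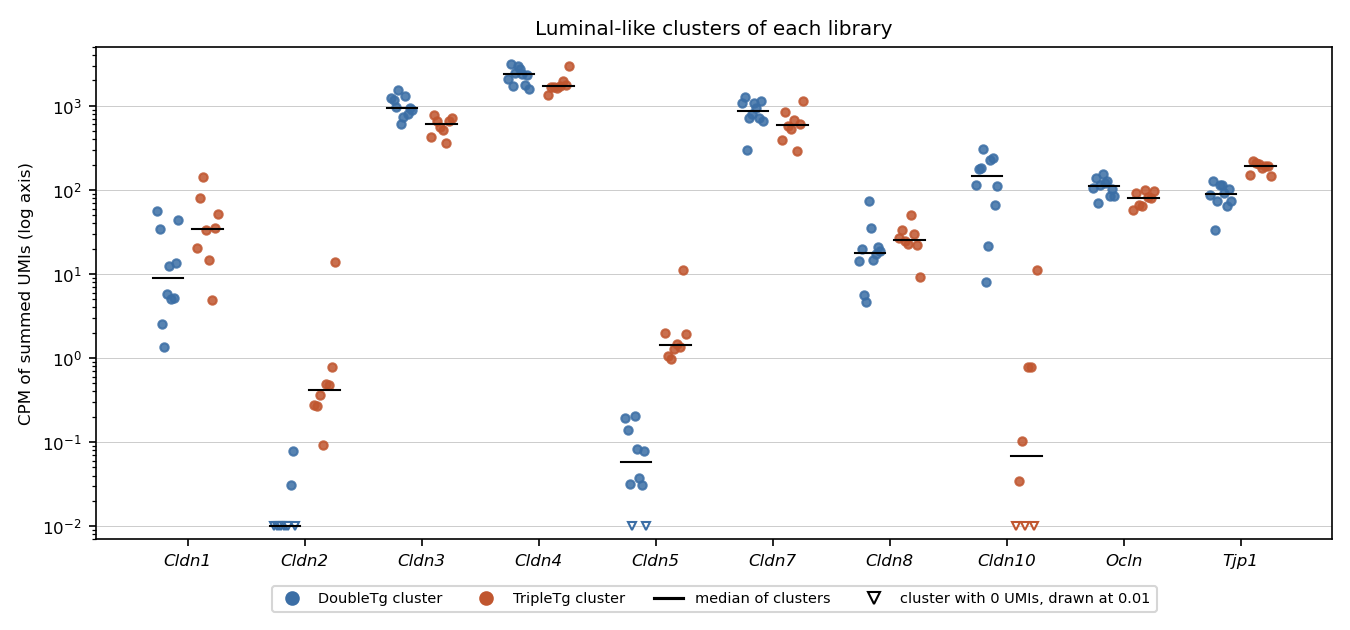
CPM of the members in each luminal-like cluster of DoubleTg and TripleTg on a log axis, 1 point per cluster, with a bar at the median of the clusters and open triangles for clusters with 0 UMIs. The clusters of the libraries overlap for Cldn3, Cldn4, Cldn7, Cldn8 and Ocln, and do not overlap for Tjp1, which runs from 33.2 to 129 CPM in DoubleTg and from 146 to 223 CPM in TripleTg.

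Cldn5 is the main claudin of blood vessel endothelium and marked endothelial-like cells here. It stood at 283 CPM (261 to 306; 629 UMIs) in DoubleTg and 603 CPM (573 to 633; 1560 UMIs) in TripleTg endothelial-like cells, a log2 ratio of 1.09 (0.96 to 1.23). In epithelial classes it was between 0 and 2.54 CPM. Among luminal-like clusters only the TripleTg interferon cluster stood out, with 43 UMIs (11.1 CPM) against 1 UMI (0.196 CPM) in its DoubleTg counterpart. A UMI was found in 26.9% and 59.6% of thinned endothelial-like cells (23.8% and 60.1% unthinned, at median depths of 6134 and 6999 UMIs), beside 0% and 1.19% of thinned immune-like cells. The 2 shares do not overlap in their intervals (20.2 to 34.5% and 51.6 to 67.3%).

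The endothelial markers as a group were lower in TripleTg, unlike Cldn5. The summed level of the 8 endothelial markers was 8967 and 5880 CPM, none of them at 0, with Kdr at 1210 and 544 CPM, Pecam1 at 1159 and 831 CPM and Cdh5 (VE-cadherin) at 1044 and 1116 CPM. The 4 lymphatic markers summed to 1553 and 1553 CPM, so lymphatic markers were present in the class in both libraries. Among cells without a UMI of any of these 4, Cldn5 stood at 350 and 579 CPM, a log2 ratio of 0.73, and among cells with one at 217 and 617 CPM, a ratio of 1.5. Krt8, an epithelial keratin, stood at 822 and 821 CPM in the class. The part of vessel type in the Cldn5 difference was not tested beyond these values.

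Of 8 members at or above 5 CPM in endothelial-like cells, 2 (Cldn3 and Cldn10, neither read as expression there) were at least 2-fold lower, beside 7.89% of 9850 genes, and 1 (Cldn5) was at least 2-fold higher, beside 13.6%. The median log2 ratio of the 8 was -0.46, beside 0.04 over all genes. Cldn3 (154 and 73.8 CPM), Cldn7 (168 and 100.5 CPM), Cldn4 (480 and 357 CPM) and Ocln (23.4 and 16.6 CPM) were close to or below their immune-like levels, though above those of macrophages, and are not read as expression. Tjp1, which endothelial junctions also use, stood at 171 and 151 CPM, well above the immune-like 20.2 and 54.2 CPM, and its ratio of -0.18 (-0.39 to 0.03) has an interval that includes 0.

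Occludin was expressed in all epithelial classes and was lower in TripleTg luminal-like and basal-like cells, by less than 2-fold. It stood at 106 and 79.2 CPM in luminal-like cells (log2 ratio -0.42, -0.46 to -0.39) and at 65.9 and 49.2 CPM in basal-like cells (-0.42, -0.52 to -0.32). Thinned luminal-like shares were 39.4% and 32.0%, beside 4.92% and 6.35% in immune-like cells. Over clusters it ran from 70.6 to 154 CPM in DoubleTg and from 57.2 to 99.8 CPM in TripleTg, and it was lower in TripleTg in all 3 matched pairs, most in the 9530053A07Rik-led pair (154 and 82.0 CPM).

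Tjp1 was higher in TripleTg in both luminal-like and basal-like cells. Luminal-like cells held 84.1 (82.8 to 85.3) and 195 CPM (192 to 197), 2.32-fold higher, with thinned shares of 34.8% and 55.4% beside 7.09% and 12.3% in immune-like cells. Every TripleTg luminal-like cluster, the lowest being Reg3b-led at 146 CPM, lay above every DoubleTg luminal-like cluster, the highest being Gsdmc2-led at 129 CPM. The 3 matched pairs had log2 ratios of 0.75, 1.16 and 1.05. In basal-like cells Tjp1 stood at 62.8 and 116 CPM, a ratio of 0.89 (0.80 to 0.98).

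**Figure D4:**
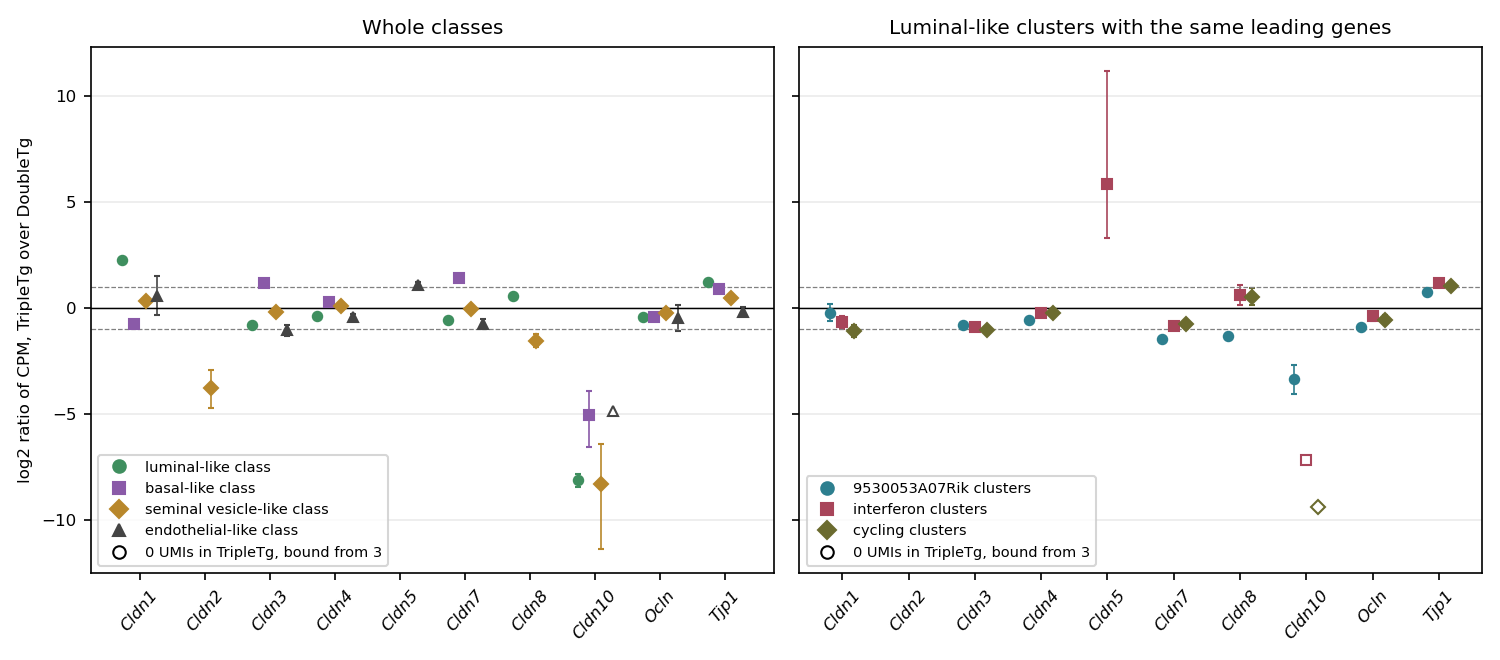
Log2 ratio of TripleTg over DoubleTg of the members at or above 5 CPM in either library, in the 4 classes (luminal-like, basal-like, endothelial-like, seminal vesicle-like), and in the 3 matched pairs of luminal-like clusters (right), with 95% counting intervals, open symbols for bounds from 0 UMIs and dashed lines at 2-fold. In luminal-like cells Cldn10 lies at -8.12, and Cldn1 (2.24) and Tjp1 (1.21) lie above the upper dashed line.

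The seminal vesicles secrete much of the protein of the seminal fluid. The 127 DoubleTg cells formed 1 cluster led by Svs2, whereas the 675 TripleTg cells formed a Crisp1-led and an Sva-led cluster. Secretion genes took 36.4% of the UMIs of the DoubleTg cluster, 35.3% of the Crisp1-led and 61.8% of the Sva-led cluster, which lowers the CPM of every other gene. The median log2 ratio of 7975 genes was -0.41, so ratios are given relative to it. On that scale Cldn1 stood at 0.75, Tjp1 at 0.89, Cldn4 at 0.50, Cldn7 at 0.35, Cldn3 at 0.24, Ocln at 0.18, Cldn8 at -1.15, Cldn2 at -3.38 and Cldn10 at -7.88. Without that shift Cldn3, Cldn7 and Ocln had ratios of -0.17, -0.05 and -0.23, so the direction of these 3 depends on the scaling.

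In CPM the seminal vesicle-like cells were closer to luminal-like than to basal-like cells for Cldn4 (1930 and 2050) and Cldn3 (824 and 732), and closer to basal-like cells for Cldn1 (149 and 189). Cldn7 stood at 675 and 650 CPM, nearer the luminal-like level in DoubleTg and between the luminal-like and basal-like levels in TripleTg. Of 9 members at or above 5 CPM, 3 (Cldn2, Cldn8 and Cldn10) were at least 2-fold lower, beside 16.8% of all genes, and none was at least 2-fold higher, beside 5.2%. Cldn2 and Cldn10 reached 5 CPM through DoubleTg alone, so nothing is read from this count. It was also 3 of 9 against the Crisp1-led TripleTg cluster alone but 7 of 9 against the Sva-led one, where the median over all genes was -1.08. For Cldn1, Cldn3 and Cldn7 the TripleTg clusters were farther apart than the libraries. Cldn1 stood at 252 CPM in the Crisp1-led and 35.8 CPM in the Sva-led cluster, Cldn3 at 951 and 200.4 CPM, and Cldn7 at 849 and 168 CPM. Svs1 had no UMI in the DoubleTg cells and stood at 885 CPM in the TripleTg cells, so the makeup of the class and the genotype cannot be told apart. Sftpc stood at 0 and 390 CPM in the class, and its part in these values was not tested.

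The number of the 8 claudins with a UMI was also counted per cell. After thinning, a luminal-like cell held UMIs of 3.37 of the 8 claudins on average in DoubleTg and 2.96 in TripleTg (4.2 and 3.91 before thinning), and 92.5% and 76.7% of cells held at least 3. Basal-like cells held 2.09 and 2.45, with at least 3 in 32.0% and 48.0%. Seminal vesicle-like cells held 3.21 and 3.26, endothelial-like cells 1.1 and 1.5, and immune-like cells, as background, 0.758 and 1.03. Cldn10, whose levels were part of the choice of members, is 1 of the 8 and had a UMI in 38.4% and 0.274% of thinned luminal-like cells, so nothing is read from the luminal-like difference. The basal-like counts stand beside an immune-like background that was also higher in TripleTg.

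Within each library the members were also compared between luminal-like cells with and without an hMETtg UMI. A cell without one can still carry the transgene, and detection goes with depth. In DoubleTg, Cldn10 stood at 148 CPM in the 4211 positive cells and 156 CPM in the 896 negative ones, a log2 ratio of -0.08 (-0.13 to -0.03), and was higher in positive cells in 3 of 8 clusters. In TripleTg, Cldn1 stood at 63.1 CPM in the 1658 positive cells and 34.6 CPM in the 3233 negative ones, a ratio of 0.87, and was higher in 6 of 7 clusters with a median within-cluster ratio of 0.40. Cldn7 had a ratio of 0.38 in TripleTg and was higher in 7 of 7 clusters, whereas in DoubleTg its pooled ratio was 0.18 but it was higher in only 2 of 8 clusters, with a median within-cluster ratio of -0.15. TripleTg Cldn10 stood at 0.267 and 0.736 CPM, a ratio of -1.46 (-2.33 to -0.67), from 80 UMIs in all. Only 4 clusters that could be split held a UMI, and 2 of these, led by Fam213a and Tchh, held 1 and 2 UMIs. A side with 0 UMIs was set to 3 counts, so the median within-cluster ratio of 0.31 is not a measured direction. No direction is read for Cldn10 in TripleTg.

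Of 57 other tight junction genes, 29 reached 5 CPM in luminal-like cells, of which 2 were at least 2-fold lower and 4 at least 2-fold higher in TripleTg, beside 12.3% and 11.7% of all genes, with a median log2 ratio of -0.06. Among the other claudins, Cldn14 had 17 UMIs (0.0854 CPM) in DoubleTg and 4977 UMIs (33.3 CPM) in TripleTg luminal-like cells, a log2 ratio of 8.61. Over TripleTg luminal-like clusters it ran from 6.04 CPM (Reg3b-led) to 75.1 CPM (9530053A07Rik-led), above the highest DoubleTg cluster at 0.237 CPM. Cldn14 reached 5 CPM through TripleTg alone and was named by a rule that picks the widest ratios, so nothing is read from its ratio. Cldn23 stood at 19.1 and 81.6 CPM, a ratio of 2.10, and was highest in the Tchh-led cluster at 158 CPM. Cldn6, chosen after its values were seen, stood at 7.65 and 0.127 CPM and reached 5 CPM through DoubleTg alone.

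Among the remaining groups, 13 of 15 scaffold genes reached 5 CPM in luminal-like cells and none was 2-fold lower or higher, the median log2 ratio being -0.03. The scaffold gene Magi3 had a ratio of 0.75 and the polarity kinase Prkci -0.80. Of the tricellular proteins, which seal the corners between neighbouring cells, Ildr1 stood at 48.7 and 19.2 CPM (-1.34) and Lsr at 182 and 104 CPM (-0.81). Marveld3, a relative of occludin, had a ratio of -0.69. Ybx3, a transcription factor that ZO-1 binds, stood at 211 and 538 CPM, a ratio of 1.35.

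In basal-like cells 29 of the 57 reached 5 CPM, of which 4 were at least 2-fold lower and 8 at least 2-fold higher, beside 14.1% and 15.6% of all genes. The angiomotin-like genes Amotl1 (126 and 46.6 CPM, ratio -1.44) and Amotl2 (118 and 48.5 CPM, -1.28) were lower in TripleTg, whereas Amotl2 had a ratio of 0.96 in luminal-like cells. Cldn23 stood at 7.84 and 30.8 CPM (1.97) and the polarity gene Crb3 at 41.5 and 95.2 CPM (1.20). Of 5 single-pass adhesion genes tested there, 3 were at least 2-fold higher and 0 lower, with a median ratio of 1.75. Of 14 scaffold genes, 4 were higher and 1 lower. Ybx3, Lsr, Magi3 and the adhesion gene Cxadr had ratios of -0.56, -0.74, -0.62 and -0.63. Ybx3 and Magi3 therefore lay on opposite sides of 0 in the 2 epithelial classes.

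**Figure D5:**
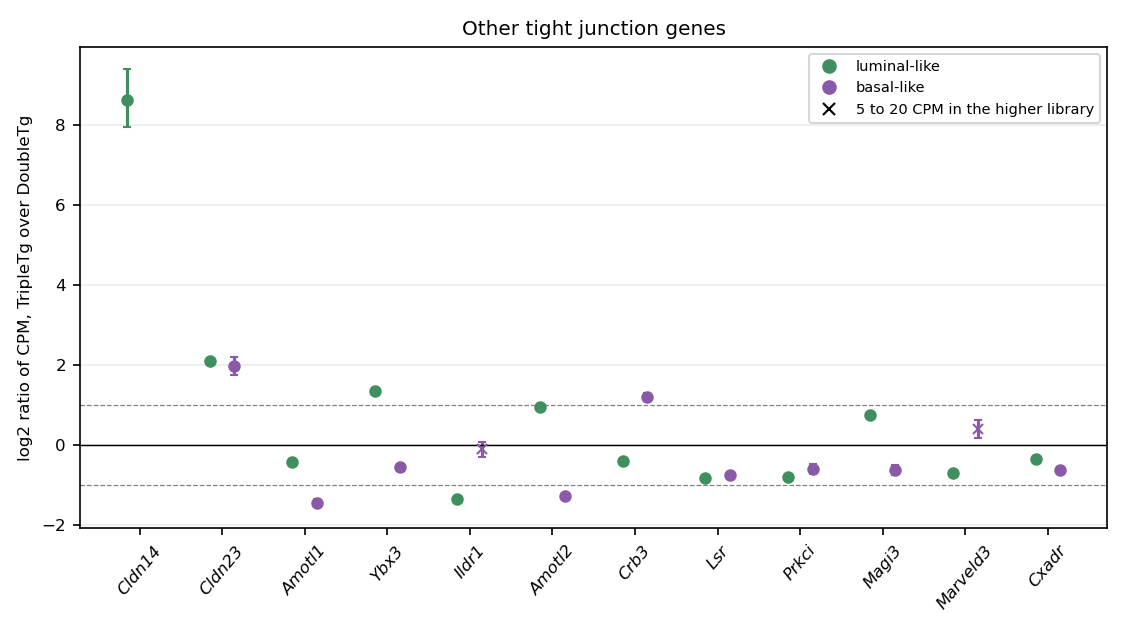
Log2 ratio of TripleTg over DoubleTg of the 12 other tight junction genes named by the rule, in luminal-like and basal-like cells, with 95% counting intervals, dashed lines at 2-fold and crosses where the higher library has 5 to 20 CPM. Cldn14, which reached 5 CPM through TripleTg alone, lies highest in luminal-like cells at 8.61, and Amotl1 lowest in basal-like cells at -1.44.

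In endothelial-like cells 32 of the 57 reached 5 CPM, 4 at least 2-fold lower and 3 at least 2-fold higher, beside 7.89% and 13.6% of all genes. Jam2, an adhesion protein of vessel junctions chosen after its values were seen, stood at 238 and 87.7 CPM. Cldn18, also chosen afterwards, had 0 and 15 UMIs (5.80 CPM) in this class, beside 0 and 54.9 CPM of the surfactant gene Sftpc, and the part of lung RNA in it was not tested.

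Over the 14 epithelial-like DoubleTg clusters, the 5 genes whose log2(CPM + 1) followed Cldn10 most closely among 4221 genes were Rhou (r = 0.92), Nupr1 (0.91), Clec2d (0.90), Cmtm8 (0.89) and Btg2 (0.88). All points share 1 library, and no p is given. In luminal-like cells Rhou stood at 141 and 112 CPM, Nupr1 at 1469 and 861 CPM, Clec2d at 64.5 and 9.34 CPM, Cmtm8 at 63.9 and 12.3 CPM, and Btg2 at 495 and 147 CPM. All 5 were lower in TripleTg, by log2 ratios of -0.33 to -2.79, none near the -8.12 of Cldn10. Among the members themselves, over the same 14 clusters, the highest pairs were Cldn4 and Ocln (r = 0.89), Ocln and Tjp1 (0.81) and Cldn4 and Cldn7 (0.79), and the member closest to Cldn10 was Cldn3 (0.77). In TripleTg the correlation of Cldn2 with Cldn10 was 0.92 over 13 clusters. The Reg3b-led cluster was highest for both, at 14.0 and 11.1 CPM, followed by the 23 Krt75-led cells at 4.66 and 1.16 CPM. The correlation without these clusters was not computed.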

How the data were processed

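The deposited matrices hold raw UMI counts per gene and cell, which the authors made with Cell Ranger on mm10 with the transgene sequences added. The submitters' processing notes name Cell Ranger 6.0.2, the header of the DoubleTg matrix names 6.1.1 and the TripleTg header gives no release. The members, gene lists and rules were chosen with earlier results of these data known.

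The study's limits on cells were applied to both matrices (421 DoubleTg cells had too many genes and 1042 too many mitochondrial UMIs, and no TripleTg cell was removed). Each library was clustered alone with scanpy 1.11.5 (2000 variable genes without tight junction genes, 20 principal components, 15 neighbours, Leiden resolution 1, fixed seed), giving 25 clusters for DoubleTg and 26 for TripleTg. Marker lists gave the class names, with thresholds set after the clusters had been seen. No doublet caller was applied in the reported values. UMIs summed per class were scaled to CPM. Intervals are exact Poisson for levels, Clopper-Pearson for shares and conditional binomial for log2 ratios (scipy 1.17.1). A gene with 0 UMIs on one side was given a bound from 3 counts, without the counting error of the other side. The share that 0 cells allow was taken as 3 cells of the class and is not a Clopper-Pearson limit. Genes at 5 CPM or more in either library entered the ratios, and a difference of 2-fold was counted. The steps were tested on simulated data.

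Besides the members, the text names up to 12 other tight junction genes with 20 CPM or more and the widest ratio in luminal-like or basal-like cells, and the 5 genes most like Cldn10 among genes with 50 CPM or more in a cluster. Alternatives were TMM scaling (edgeR 4.0.16), thinning, weighting cells or clusters equally, other clusterings, a mitochondrial limit of 8%, leaving out the top 5% of Scrublet scores, hMETtg-positive cells only and a minimum of 20 CPM. Sequences before gene starts are from RefSeq on GRCm38.p6. The study's integration and its own tests were not used here.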

Additional observations from a re-analysis of the deposited data

How the results depend on the processing

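Cldn10 was lower in TripleTg luminal-like and basal-like cells under every alternative run. Its luminal-like log2 ratio, -8.12 as reported, was -7.70 when cells were thinned to 5000 UMIs, -9.13 at Leiden resolution 0.5 and -9.11 in hMETtg-positive cells only. Alternatives chosen after seeing the data gave -6.49 with luminal-like clusters weighted equally and -8.92 without the TripleTg cluster led by Reg3b. Equal weighting also moved luminal-like Cldn1 from 2.24 to 1.41. The basal-like ratio of -5.06 rests on 6 TripleTg UMIs and was -3.50 (a bound) after thinning, -3.01 at resolution 0.5 and -6.55 in hMETtg-positive cells. The median of the luminal-like members, -0.41, was -0.49 with TMM, -0.46 thinned, -0.45 as a mean over cells, -0.36 in hMETtg-positive cells and -0.39 without the Tchh-led TripleTg cluster (also chosen later). That of the basal-like members, 0.25, was 0.20 thinned, 0.33 at resolution 0.5, 0.19 in hMETtg-positive cells and -0.078 with clusters made with tight junction genes, where the sign of Cldn3 also reversed (-0.078 against 1.18). Endothelial-like Cldn5, 1.09, was 0.84 thinned, 0.95 at resolution 2 and, chosen after seeing the data, 0.73 in cells without a lymphatic marker UMI. Of the other member ratios all 77 luminal-like values and 53 of 54 basal-like values kept their sign. With a minimum of 20 CPM the basal-like tight junction genes at least 2-fold lower numbered 2 in place of 5, and those higher 4 in place of 10, since fewer genes were tested. Otherwise the cause of these shifts was not tested. TMM moved seminal vesicle-like ratios by 0.44 and those of the other classes by less than 0.1. Of 80 shares of cells with a UMI, 70 were lower after thinning. Levels of a few UMIs per class and the absence of replicate libraries limit what these data can show. No paired analysis was possible because there is 1 library per genotype.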
